A study of Mus musculus with 12 samples.

Results

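Polycomb target gene promoters in mouse embryonic stem cells (ESCs) were captured together with all the chromatin that they touched, and many of those contacts ended at places not marked as bound by canonical Polycomb proteins. These other-site contacts are described here. They comprise every interaction of the 24 named bait promoters whose far end, in the deposited table, misses every site where RING1B and PCGF2 were found together. There were 284 of them among 414 interactions of the named baits and 842 interactions of all 44 baits in the table. Each bait contributed between 1 (Fgf9) and 24 (Hoxb3) contacts, and the 4 HoxB baits together contributed 85. The table marks only sites that hold both proteins, so that an other site may still carry RING1B without PCGF2.

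CaptureC was performed on 12 samples of ESCs of the E14 strain, in 4 groups of 3 replicates. PRC1CPM cells, a single clone, carry the substitutions I50A and D53K in both alleles of Ring1a. Both Ring1b alleles are floxed and are switched by an ERT2-Cre expressed from Rosa26 to a form with I53A and D56K. The PRC1CPM cells were either left untreated or given 800 nM tamoxifen (OHT) for 72 h, which removes the catalytic activity of PRC1. PRC1DEG cells lack Ring1a, express the auxin receptor Tir1 and carry an AID degron on RING1B, which is degraded after auxin. The Control line carries Tir1 alone, and both of these lines received 0.5 mM auxin for 6 h, so that OHT was compared with untreated cells and PRC1DEG with Control. The deposited table holds 1 value per group, merged from its replicates. Spread between replicates could therefore not be computed, no p-value between conditions is given, and every comparison below is between merged libraries.

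Polycomb repressive complex 1 (PRC1) mono-ubiquitylates histone H2A through RING1A or RING1B. Its canonical form contains PCGF2 together with CBX and PHC proteins, and is known for bringing distant Polycomb target genes, most of them CpG island promoters of developmental regulators, close to each other in ESCs. In CaptureC, DNA that lies close together after crosslinking is cut with DpnII and ligated, and fragments joined to a bait promoter are enriched and sequenced. A fragment that gains more reads than its distance from the bait predicts receives a high CHiCAGO score, and a score of at least 5 is called an interaction. Fragments entered the table through this score, so that these same libraries chose the contacts, although 1 of the 284 other sites (Dlx2 in an intron of Itga6) and 6 of 130 RING1B and PCGF2 sites had a summit score under 5 in all 4 merged libraries.

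The DNA at the far ends of other-site contacts was poor in CpG beside that of RING1B and PCGF2 sites. Only 3 other-site contacts were called in all 4 groups, and the sequence at the centre of their summit fragment, the fragment that carries the peak, is printed here beside that of the RING1B and PCGF2 site with the most reads per fragment from the same bait, since they show how varied these ends are. All are from the plus strand of GRCm38 and are credited to RefSeq, with each CpG in capitals.
Hoxb5 contact in Skap1, chr11:96677260-96677559: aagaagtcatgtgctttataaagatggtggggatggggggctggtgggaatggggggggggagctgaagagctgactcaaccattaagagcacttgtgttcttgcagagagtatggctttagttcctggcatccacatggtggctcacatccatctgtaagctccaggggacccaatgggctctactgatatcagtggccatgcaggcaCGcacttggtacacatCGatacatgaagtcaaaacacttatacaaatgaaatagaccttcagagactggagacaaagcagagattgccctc
Hoxb5 contact over Copz2, chr11:96861665-96861964: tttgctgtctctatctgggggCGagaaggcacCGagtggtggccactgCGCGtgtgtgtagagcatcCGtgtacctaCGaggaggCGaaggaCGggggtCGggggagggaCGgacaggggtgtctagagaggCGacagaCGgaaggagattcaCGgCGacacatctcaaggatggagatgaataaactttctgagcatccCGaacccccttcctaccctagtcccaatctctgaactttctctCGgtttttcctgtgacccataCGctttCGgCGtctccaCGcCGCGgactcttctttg
Zfp503 contact in Kcnma1, chr14:23400527-23400826: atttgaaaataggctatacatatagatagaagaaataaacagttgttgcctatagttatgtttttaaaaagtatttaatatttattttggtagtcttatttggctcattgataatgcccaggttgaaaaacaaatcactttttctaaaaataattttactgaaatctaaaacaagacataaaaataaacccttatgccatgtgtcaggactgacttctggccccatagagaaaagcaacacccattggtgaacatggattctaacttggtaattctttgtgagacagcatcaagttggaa
Hoxb5 RING1B and PCGF2 site, chr11:96331744-96332043: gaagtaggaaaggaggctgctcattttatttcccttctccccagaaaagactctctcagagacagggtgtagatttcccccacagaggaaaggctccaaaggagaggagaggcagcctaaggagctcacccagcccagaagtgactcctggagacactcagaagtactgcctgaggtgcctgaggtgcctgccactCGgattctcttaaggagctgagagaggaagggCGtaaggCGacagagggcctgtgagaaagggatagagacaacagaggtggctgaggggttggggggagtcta
Zfp503 RING1B and PCGF2 site, chr14:25457962-25458261: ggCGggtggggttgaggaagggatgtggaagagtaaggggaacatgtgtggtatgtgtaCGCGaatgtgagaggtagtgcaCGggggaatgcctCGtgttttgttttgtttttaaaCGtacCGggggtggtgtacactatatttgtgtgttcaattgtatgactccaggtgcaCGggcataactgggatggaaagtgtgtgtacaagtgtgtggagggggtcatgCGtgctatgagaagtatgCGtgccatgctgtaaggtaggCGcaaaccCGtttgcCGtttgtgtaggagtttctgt
The Skap1 stretch held 2 CpGs and the Kcnma1 stretch 0, whereas the Copz2 stretch held 22. The RING1B and PCGF2 stretches held 3 and 13. Thus the CpG-rich end was here an other site, which is not the rule for the class.

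Across all 284 contacts the summit fragment had a median GC content of 44.9% (quartiles 42.2% and 49.1%) and a median CpG observed/expected ratio of 0.230 (quartiles 0.154 and 0.319). The same ratio was 0.492 at the 130 RING1B and PCGF2 sites of these baits and 0.192 over the 10 chromosomes that carry the baits. The GC content was 52.8% (median) at those sites and 41.9% over the chromosomes. Other sites thus lay slightly above the chromosomes in both measures. A fragment with a ratio of at least 0.6 and a GC content of at least 50% was found at 5 of 284 other sites and at 43 of 130 RING1B and PCGF2 sites. The highest ratios of the class were found at the end over Copz2, which encodes a subunit of a vesicle coat, reached by both Hoxb5 and Hoxb3 with a ratio of 0.827, at the promoter of the histone acetyltransferase gene Hat1 reached by Dlx2 (0.799), and at the promoter of the activin receptor gene Acvr2b reached by Ctdspl (0.788).

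The core motif of CTCF, the DNA-binding protein at which cohesin loops commonly end, was searched on both strands by its degenerate consensus of 12 bases. It was present in 20 of 284 other-site ends (7.04%), compared with 1.96% of all windows of the same lengths on the same chromosomes. For the 247 ends within 1 Mb of their bait the share was 7.69%, and it was 2.76% for windows of the same lengths within 1 Mb of the bait. At RING1B and PCGF2 sites it was 3.85% (5 of 130), beside 3.59% of windows of their lengths. When ends of different baits that overlap were merged, 15 of 244 separate ends (6.15%) held a match. Of the 20 ends with a match, 9 belonged to the 4 HoxB baits and 5 to Dlx2. By width, a match lay in 9 of the 30 ends of more than 20 fragments and in 4 of the 209 single fragments (1.91%). The matches are of letters, not measured binding, and contacts of neighbouring baits share some of them. Matches in other-site ends reached by more than 1 HoxB bait are shown with the core in capitals and 9 bases on each side, read on the strand of the match in GRCm38.
chr11:96600120-96600131, minus strand, reached by Hoxb1 and Hoxb3: gtaggcacgCCAGCAGAGGGCtcgccaaaa
chr11:96621391-96621402, minus strand, reached by Hoxb1, Hoxb2 and Hoxb3: caccaacagCCAGCAGGTGGCgctattcac
chr11:96760201-96760212, plus strand, reached by Hoxb3 and Hoxb5: gagagagaaCCACTAGGTGGCagtatatga
chr11:96860769-96860780, minus strand, reached by Hoxb3 and Hoxb5: cagccctggCCACTAGATGGCagcagcttg
The last of these lies in the contact over Copz2 that was above the score threshold in all 4 groups from Hoxb5. Contacts with a match had a median log2 change of -0.15 after OHT, and the 264 contacts without one had -0.17. In PRC1DEG cells the 2 medians were -0.06 with a match and 0.09 without.

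Most other-site contacts lay within 1 Mb of their bait, as did most of all interactions. The median distance between centres was 392 kb (quartiles 256 and 647 kb), and 247 of 284 lay within 1 Mb, 12 of them within 100 kb. Over all 842 interactions the median was also 392 kb and 703 lay within 1 Mb, and for the 428 interactions of unnamed baits the median was 335 kb. At RING1B and PCGF2 sites the median was 951 kb and the upper quartile 5107 kb. The nearest other-site contact was 32.4 kb from Dmbx1. Fgf9 had its only contact 6407 kb away in the direction of Msra. This far contact rested on very few weighted reads, with 0 in the untreated, OHT and Control libraries and 3 in PRC1DEG. Of all 284, 24 ended within 20 kb of a RING1B and PCGF2 end of the table and 51 were more than 500 kb from any.

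**Figure D1:**
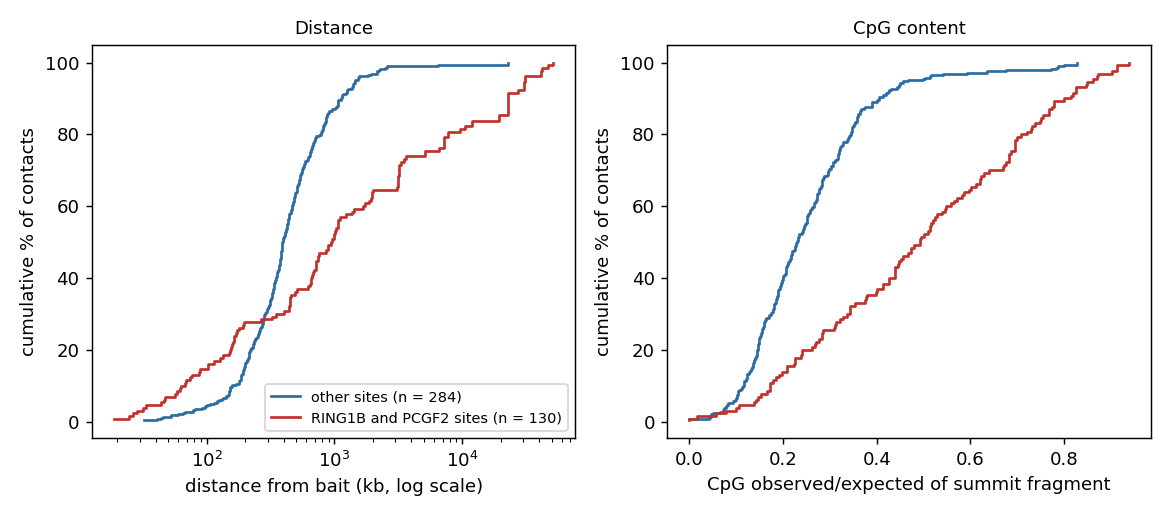
Cumulative share of contacts (%) by distance from the bait (left, kb, log scale) and by the CpG observed/expected ratio of the summit fragment (right), for 284 other sites (blue) and 130 RING1B and PCGF2 sites (red). Other sites are gathered around 392 kb and at low CpG ratios, with medians of 0.230 against 0.492.

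Most other-site contacts were narrow. A single DpnII fragment made up 209 of the 284, and the median width was 1223 bp, compared with 63 of 130 single fragments and 1961 bp at RING1B and PCGF2 sites. The share of single fragments, 73.6%, was near the 71.5% of all 842 interactions, whose median width was 1176.5 bp. Narrow ends are thus not particular to other sites. Counted in fragments, the 3 widest were the contact of Hoxb1 over 101 fragments of Skap1, that of Zfp503 over 73 fragments of Kcnma1, and that of Hoxb5 over 59 intergenic fragments 33.1 kb beyond Hoxb1. Reads followed width. Contacts of 1 fragment had a median of 17 weighted reads in untreated cells, whereas the 30 contacts of more than 20 fragments had 442.5.

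Other sites were rarely promoters. A protein-coding transcription start site (TSS) lay inside 12 of 284 ends (4.23%), 48 touched an exon, 105 lay in an intron and 119 were intergenic. At RING1B and PCGF2 sites 58 of 130 (44.6%) held a TSS. The 12 promoter ends belonged to 13 genes, among them St3gal4 (a sialyltransferase), Metap1d (a mitochondrial aminopeptidase), Pelo (ribosome rescue), Cmpk1 (a nucleotide kinase) and Chmp6 (membrane remodelling). None of the 13 was a developmental transcription factor, and none of the 37 genes with a TSS within 5 kb of an other site was one. By contrast, a TSS of such a factor lay within 5 kb of 60 of the 130 RING1B and PCGF2 ends, which included Foxa2, Pax6, Lhx1 and Zic1. No pluripotency gene and no Polycomb subunit gene had a TSS within 5 kb of an other site. The classes were defined by PCGF2, which is known to occupy CpG island promoters of developmental genes.

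Gene bodies next to the baits took many of the contacts. Skap1, which encodes an adaptor of T cell receptor signalling and lies beside the HoxB cluster, was touched by 57 contacts of 4 HoxB baits. Myo3b, a myosin gene, was touched by all 13 contacts of Sp5, and Kcnma1, which encodes a potassium channel, by 10 contacts of Zfp503. The 284 contacts fell on 244 separate ends, and 15 of those were shared by 2 to 4 baits, all of them HoxB baits, so that 55 of the 85 HoxB contacts ended at a place that another HoxB bait also touched. Contacts are thus not independent observations.

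Calls were scattered between libraries. A score of at least 5 at the summit was reached by 176 of 284 contacts in untreated PRC1CPM cells (62.0%, beside 58.8% of all 842 interactions), by 109 after OHT (38.4%, beside 33.6%), by 28 in Control (9.86%, beside 20.1%) and by 30 in PRC1DEG cells (10.6%, beside 17.9%). In 239 contacts a single library made the call, 193 of these being single fragments, and the best score of the 4 libraries had a median of 5.67, close to the threshold. In untreated cells only, 139 were called, and after OHT only, 77, while 27 were called in both. Among the 130 RING1B and PCGF2 sites, 86 were called in untreated cells, 15 after OHT and 11 in both, and the median best score was 7.67. Scores were computed separately for each library, and the 2 cell systems were sequenced in separate experiments.

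**Figure D2:**
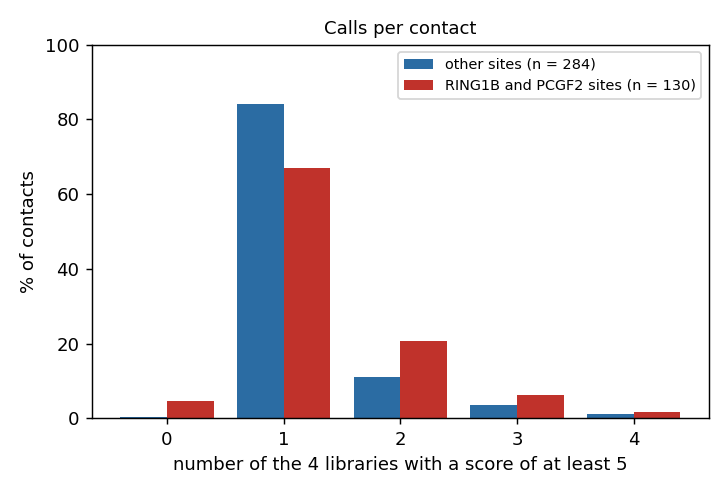
Share of contacts (%) by the number of the 4 merged libraries in which the summit score was at least 5, for 284 other sites (blue bars) and 130 RING1B and PCGF2 sites (red bars). Of the other sites 84.2% were called in 1 library and 1.06% in all 4.

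After OHT, reads at other sites were slightly lower on the deposited scale, but 0.10 higher on the log2 scale when centred on the median of all interactions. The median log2 change after OHT was -0.17 (quartiles -0.44 and 0.13), 190 of 284 contacts were lower, and the normalised reads summed over all of them were 89.8% of those in untreated cells. For all 842 interactions of the table the median was -0.27, and for the 130 RING1B and PCGF2 sites it was -0.91 with a sum of 54.4%. After RING1B degradation other sites were about evenly divided. Their median log2 change in PRC1DEG relative to Control cells was 0.09 (quartiles -0.20 and 0.43), 125 were lower and 159 higher, and the sum was 99.6% of Control. For all interactions it was -0.00481, and for RING1B and PCGF2 sites -1.79 with a sum of 33.8%.

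Few other-site contacts changed by 2-fold. Among the 232 with at least 20 weighted reads in the 2 PRC1CPM libraries together, 6 were at least 2-fold lower after OHT (2.59%, beside 8.35% of all interactions with such reads) and 0 were at least 2-fold higher (beside 0%). Among 205 in the auxin libraries, 3 were at least 2-fold lower in PRC1DEG cells (1.46%, beside 11.2%) and 6 at least 2-fold higher (2.93%, beside 1.17%). All 6 that were lower after OHT were single fragments. Counting error alone was gauged by the 95% Wilson interval of the treated library's share of the reads. It lay below no change for 20 of the 232 after OHT (8.62%, beside 17.8%) and above it for 0 (beside 0%). In PRC1DEG cells it lay below for 17 of 205 (8.29%, beside 15.2%) and above for 19 (9.27%, beside 4.51%). The intervals leave out the variation between replicates, and reads carry no molecular identifiers.

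**Figure D3:**
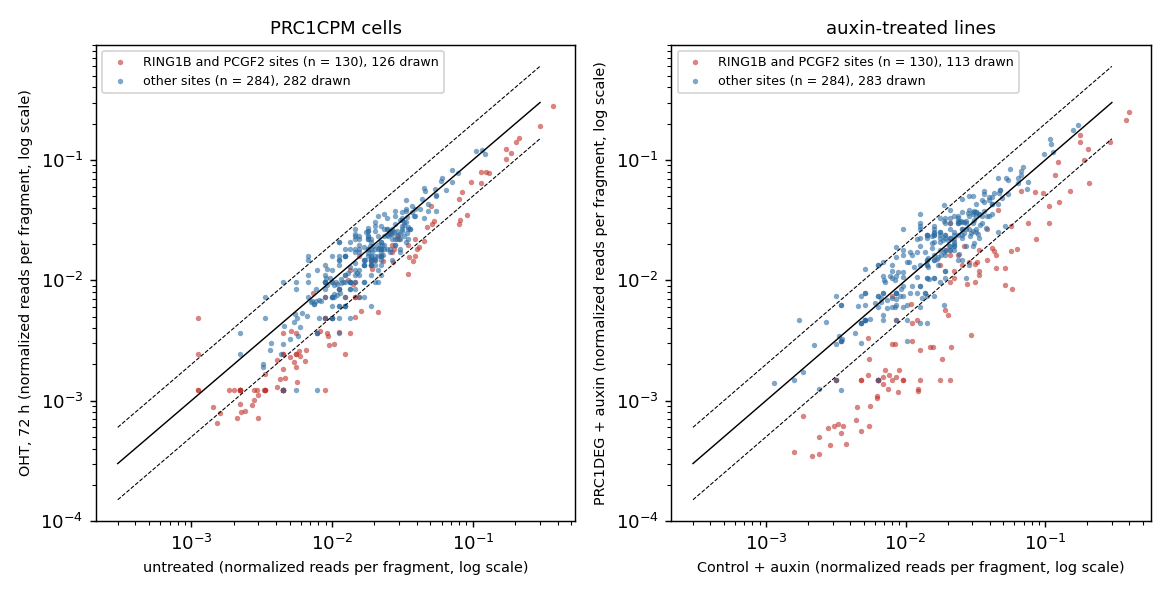
Normalized reads per fragment (log scales) in untreated against OHT-treated PRC1CPM cells (left) and in Control against PRC1DEG cells (right), 1 point per contact with reads in both libraries, for other sites (blue) and RING1B and PCGF2 sites (red). The solid line marks equal levels and the dashed lines a 2-fold difference. Nearly all other sites lie between the dashed lines, and most red points fall below the solid line.

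Within every one of the 22 baits that had both kinds of contact, the median of the other sites was higher than that of the RING1B and PCGF2 sites, after OHT and in PRC1DEG cells alike. For Fgf9 the other-site value came from 1 contact with 0 reads in untreated, OHT and Control cells and 3 in PRC1DEG cells. It thus rests on the pseudocount. Some baits had few RING1B and PCGF2 sites, with 1 for Hcrtr1 and 2 each for Ctdspl, Gata5 and Fgf9. The distance between the medians of the 2 kinds of contact differed. For Islr2 the medians in PRC1DEG cells were -0.10 and -0.13, and for Nkx2-1 they were -0.09 and -2.43. After OHT the other-site median was below 0 for 20 of 24 baits, and in PRC1DEG cells for 10 of 24.

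Some baits stood near the edges of this range. The lowest median after OHT was that of Isl1, a LIM homeobox gene, at -0.90, with 5 of 6 contacts lower and a sum of 53.3% of untreated cells, and its median in PRC1DEG cells was -0.12. The lowest in PRC1DEG cells was that of Nptx1 at -0.54, beside -0.18 after OHT. Other sites of Dmbx1, Fli1 and Sp5 had medians below -0.39 in both systems, at -0.78, -0.51 and -0.39 after OHT and -0.51, -0.48 and -0.50 in PRC1DEG cells. For Sp5, a transcription factor gene activated by Wnt signals, 12 of its 13 contacts over Myo3b were lower in PRC1DEG cells, and their summed reads were 75.8% of untreated cells after OHT and 62.7% of Control in PRC1DEG cells. Igfbp5, which encodes an IGF-binding protein, had the highest median in PRC1DEG cells among the baits with more than 1 contact, at 0.43, followed by Nkx2-2 (0.37), Nlgn1 (0.34) and the orexin receptor gene Hcrtr1 (0.33). Of 15 Igfbp5 contacts 1 was lower there, and of 14 Hcrtr1 contacts 2. After OHT the medians of Igfbp5 and Hcrtr1 were -0.05 and 0.07, and that of Nlgn1 was -0.56. Hoxb3, with the most contacts, had a median of 0.20 after OHT and 0.24 in PRC1DEG cells, whereas Hoxb1 had -0.21 and -0.15. Bait medians after OHT also carry the choice of contacts. Contacts called in untreated and in OHT-treated cells numbered 5 and 0 for Dmbx1 and 8 and 2 for Fli1. They numbered 10 and 3 for Sp5, and 6 and 9 for Hcrtr1. No test between baits is possible with 1 value per group.

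**Figure D4:**
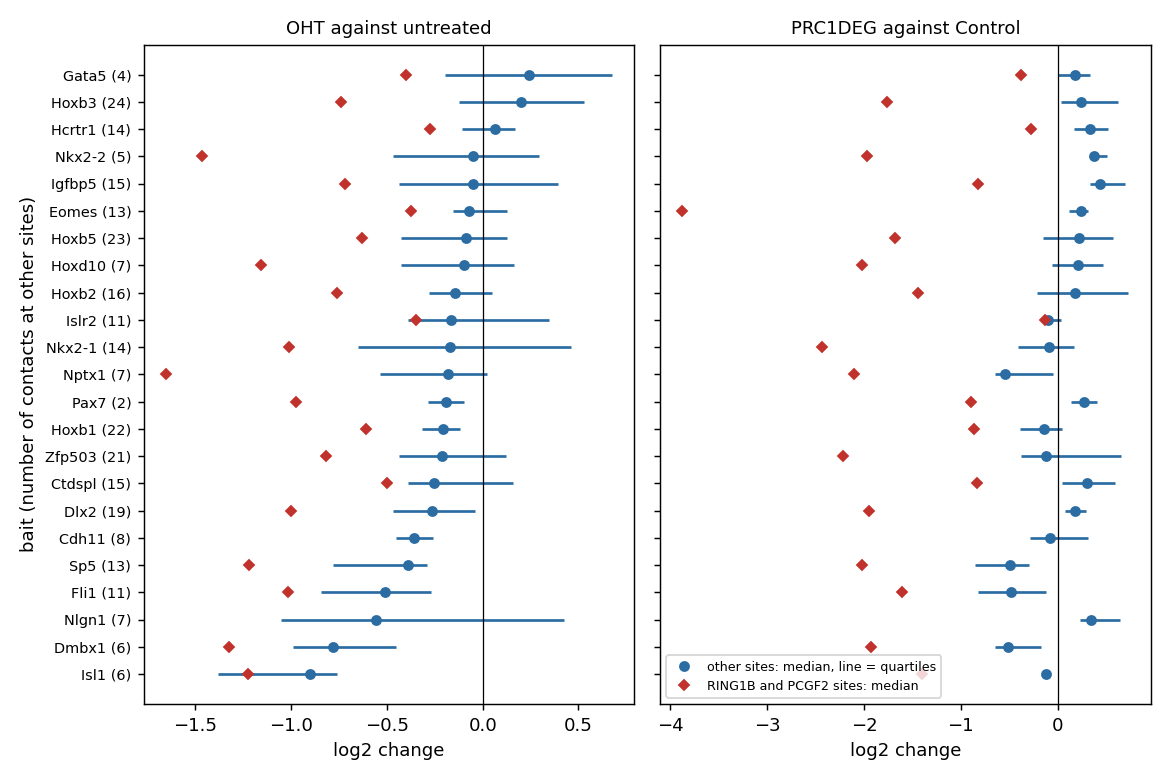
Log2 change after OHT (left) and in PRC1DEG relative to Control cells (right) for each bait with more than 1 other-site contact, with the number of contacts in brackets. Blue points are medians of other sites with lines from the lower to the upper quartile, and red diamonds are medians of RING1B and PCGF2 sites. Every red diamond lies to the left of the blue point of its bait.

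The contact of Zfp503 with Kcnma1 (chr14:23390232-23411555, 1413 kb from the bait) had the highest score of all other sites, 28.6 in untreated cells. It was represented by 435 weighted reads in the untreated library, 303 with OHT, 292 for Control and 241 for PRC1DEG. OHT changed it by -0.37 on the log2 scale (Wilson interval -0.60 to -0.18) and RING1B degradation by -0.38 (-0.65 to -0.16), and the score remained above 5 in every library. Its nearest RING1B and PCGF2 end was 588 kb away.

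Hoxb5 retained a contact in an exon-containing part of Skap1 (chr11:96660388-96682242) with 477, 397, 381 and 360 reads in untreated, OHT, Control and PRC1DEG cells. Both intervals included no change, at -0.13 (-0.33 to 0.06) after OHT and -0.17 (-0.39 to 0.03) in PRC1DEG cells. Its contact over an exon of Copz2 (chr11:96854393-96865544) had 186, 151, 186 and 138 reads. There the log2 change was -0.17 (-0.48 to 0.14) after OHT and -0.51 (-0.85 to -0.21) in PRC1DEG cells. Of the 3 contacts called in all groups, reads were thus lower in each treated library, by more than counting error in both systems for Zfp503 and in PRC1DEG cells for Copz2. The OHT part of this rests on the deposited scale. Centred on the median of all interactions, the OHT changes became -0.10 (-0.34 to 0.09) for Zfp503, 0.14 (-0.06 to 0.32) for Skap1 and 0.10 (-0.21 to 0.40) for Copz2. In PRC1DEG cells the centre was near 0 and the values hardly moved.

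The largest falls with at least 50 reads included the contact of Fli1, an ETS factor gene, with the promoter of St3gal4 (chr9:35107574-35122122), 2574 kb away and among the 4 most distant contacts. It had 96 reads without OHT and 51 with it, and 66 reads in Control against 26 in PRC1DEG. Its log2 change was -0.69 (-1.27 to -0.30) after OHT and -1.25 (-2.12 to -0.82) in PRC1DEG cells, where it was the only other site with at least 50 reads that fell 2-fold (1 of 96, beside 15.7% of all interactions with such reads). After OHT 0 of 104 other sites with such reads fell 2-fold (beside 10.2%). With a pseudocount 10 times larger the change in PRC1DEG cells was -0.55, so that the 2-fold call was lost. The end contained a TSS, and the nearest RING1B and PCGF2 end of the table lay 618 kb away. Its summit score was 14.3 in untreated, 2.18 in OHT, 3.75 in Control and 0 in PRC1DEG libraries. It was thus called in untreated cells alone, and the choice of contacts bears on its fall after OHT.

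Dmbx1, a homeobox gene, contacted the promoter of the membrane protein gene Pdzk1ip1 (chr4:115083576-115098475), with 140, 83, 94 and 63 reads in untreated, OHT, Control and PRC1DEG cells. The log2 changes were -0.58 (-1.02 to -0.24) and -0.62 (-1.13 to -0.22). Its summit scores were 6.86, 2.16, 0.871 and 0 in the same order. It was thus called in untreated cells alone, and the choice of contacts bears on its fall after OHT. Here a RING1B and PCGF2 end lay 13.5 kb away. A contact of Fli1 toward Kcnj1 (chr9:32412827-32418296), with 243, 163, 177 and 138 reads, was 0.938 kb from such an end, and changed by -0.44 (-0.73 to -0.16) and -0.48 (-0.81 to -0.17). For Sp5 the widest contact over Myo3b (chr2:70114867-70133163) had 282, 180, 239 and 139 reads, with changes of -0.50 (-0.79 to -0.25) and -0.85 (-1.18 to -0.58). A second Myo3b contact of Sp5 (chr2:70221107-70228042) had 189, 133, 154 and 91 reads and changed by -0.37 (-0.70 to -0.06) and -0.83 (-1.23 to -0.48). Both lay over 200 kb from the nearest RING1B and PCGF2 end. Nkx2-2 had an intergenic contact 56.6 kb from Pax1 (chr2:147303758-147308385) with 296, 185, 280 and 231 reads and changes of -0.55 (-0.81 to -0.29) and -0.37 (-0.63 to -0.12). In these contacts the treated library was the lower of its pair in both systems. They were named for the largest falls, in a single system or in both. A lower treated library was thus fixed in advance in each system used for the choice. After centring, the OHT interval lay below 0 for the St3gal4 contact of Fli1 and for that of Nkx2-2 only, and it included 0 for the other 4.

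On the deposited scale, rises beyond counting error were seen only in PRC1DEG cells. Of 104 other sites with at least 50 reads, 0 rose after OHT by more than counting error (beside 0% of all interactions with such reads) and 19 fell (beside 31.3%). When centred on the median of all interactions, 18 of the 104 lay above no change (beside 9.64%) and 2 below (beside 16.9%). In PRC1DEG cells 14 of 96 rose (beside 6.41%) and 14 fell (beside 23.7%), and centring left these counts the same. The largest rise with such reads was that of Ctdspl with an intron of the integrin gene Itga9, with 18 Control and 34 PRC1DEG reads (log2 change 0.81, interval 0.01 to 1.63), and 22 in each PRC1CPM library. Ctdspl also touched Dlec1, with 35 and 57 reads (0.60, 0.00267 to 1.21), and 27 and 26 in the PRC1CPM libraries. This contact was called in PRC1DEG cells alone, with a summit score of 5.00 against 2.38 in Control. The choice of contacts therefore bears on its rise. An intergenic fragment 45.4 kb from Hcrtr1 had 68 and 101 reads (0.47, 0.03 to 0.91), and a wide intergenic contact of Igfbp5 (chr1:73737831-73759758) had 192 and 287 (0.43, 0.19 to 0.71). On the deposited scale neither was higher after OHT, with 109 and 92 reads and 299 and 254 reads. Centred, their OHT changes were 0.15 (-0.25 to 0.55) for Hcrtr1 and 0.17 (-0.08 to 0.40) for Igfbp5. In PRC1DEG cells the lower bounds of the 3 single fragments lie just above 0, and that of Igfbp5 lies farther from it.

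The 4 contacts with the most reads per fragment were all close to their bait. Of these, 3 were single fragments between 41.1 and 45.4 kb from Hcrtr1, on the side of Tinagl1, and 1 lay 79.0 kb from Ctdspl inside that gene. The Ctdspl fragment had 64, 67, 69 and 91 reads, and that nearest to Hcrtr1 had 104, 99, 108 and 131. The widest contact, Hoxb1 over Skap1 (chr11:96526332-96569869), had 2649, 1978, 2092 and 1647 reads in the untreated, OHT, Control and PRC1DEG libraries. It changed by -0.29 (-0.38 to -0.21) and -0.44 (-0.54 to -0.35). The intergenic contact of Hoxb5 near Hoxb1 (chr11:96398807-96420712) had 985, 926, 926 and 1243 reads and moved by 0.04 (-0.09 to 0.17) and 0.32 (0.20 to 0.45). Centred, the OHT changes of these 2 contacts were -0.02 (-0.11 to 0.06) and 0.31 (0.18 to 0.44). The 2 wide ends thus moved in opposite directions in PRC1DEG cells.

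The direction in one system went with that in the other to a degree. Of the 88 other sites with at least 50 reads in both pairs of libraries, 35 were lower in both, 21 were higher in both, 30 were lower after OHT and higher in PRC1DEG cells, and 2 were the reverse. Pearson's r between the 2 log2 changes was 0.56 over these 88 contacts, which share baits, capture and normalization. Intervals lay below no change in both systems for 11 (beside 23% of all interactions with such reads). Of 62 RING1B and PCGF2 sites with such reads, 61 were lower in both.

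**Figure D5:**
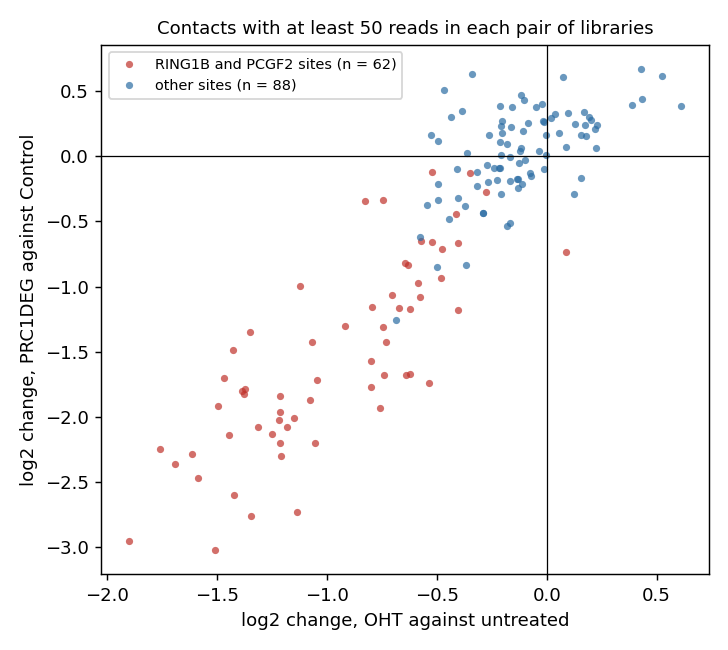
Log2 change after OHT (horizontal) against log2 change in PRC1DEG relative to Control cells (vertical) for contacts with at least 50 weighted reads in each pair of libraries, for 88 other sites (blue) and 62 RING1B and PCGF2 sites (red). Other sites lie around the crossing of the zero lines, from -1.25 to 0.67 on the vertical axis, and RING1B and PCGF2 sites reach -3.02.

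Distance and width moved with these changes only weakly. After OHT the median went from -0.06 for the 12 contacts within 100 kb to -0.27 for the 37 beyond 1 Mb. In PRC1DEG cells it was 0.18 and -0.12, and 26 of those 37 were lower. Read numbers fell with distance as well, from a median of 106.5 to 9 in untreated cells. Contacts wider than 20 fragments, which had the most reads, had a median of -0.15 after OHT and 29 of 30 were lower, and in PRC1DEG cells their median was -0.10 and 20 of 30 were lower. The 209 single fragments had medians of -0.15 and 0.15. By annotation, medians after OHT ranged from -0.23 at the 12 TSS ends to -0.13 at exons, and in PRC1DEG cells from -0.10 at exons to 0.24 at TSS ends. Medians by CpG ratio were -0.27, -0.12 and -0.12 after OHT for ratios up to 0.2, up to 0.4 and above. The 24 contacts within 20 kb of a RING1B and PCGF2 end had the lowest medians in both systems, at -0.48 and -0.30. The 260 farther away had -0.16 and 0.11. Among these 260 the medians after OHT fell as that distance grew. They were -0.06 from 20 to 100 kb (37 contacts), -0.13 from 100 to 500 kb (172) and -0.38 beyond 500 kb (51, of which 42 were lower). In PRC1DEG cells the same bins had 0.15, 0.10 and 0.18, without a steady trend.

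The choice of contacts bears on these medians, since a contact called in a single library was by that fact high there. It bears likewise on the changes and Wilson intervals of the single contacts named above. The 139 called only in untreated cells had a median of -0.41 after OHT, and the 77 called only after OHT had 0.36. Contacts called in a single system were not chosen for a high score in the other system. They were, however, chosen for summit scores under 5 in both libraries of that other system, so that selection bears on these values too. The 233 contacts called in PRC1CPM cells and not in the auxin libraries had a median of 0.09 in PRC1DEG cells, and 102 of them were lower. The 25 called only in auxin libraries had a median of -0.02 after OHT, with 14 lower. At RING1B and PCGF2 sites chosen in the same 2 ways the medians were -1.48 (55 contacts) and -0.72 (34 contacts).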

How the data were processed

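CaptureC was analysed in 4 groups of 3 samples. The authors aligned reads with HiCUP and Bowtie2 (mm10), merged the replicates of each group, and obtained weighted read counts and scores with CHiCAGO. Fragments scoring at least 5 in any sample were joined where they lay less than 10 DpnII fragments apart. The deposited signal is a weighted read count per interaction, scaled to the total for all captured promoters and to how many promoters were captured. The deposited score is the CHiCAGO score of the summit fragment, with its sum over fragments beside it. The members and gene lists were chosen with earlier results of these data known.

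Signal was divided by the number of fragments, and log2 changes were computed with a pseudocount of 0.000350, the smallest value above 0. Since replicates are merged, no test was made between conditions. The value of 1 weighted read was read from the steps between values, with 100% of values whole within a tolerance of 0.1. In the auxin libraries 2 step sizes split the baits into 2 sets, 1 with 18 and 1 with 6 named baits, a split that the labels do not state. Recovered reads gave the 95% Wilson intervals, which use no pseudocount and cover counting error only. Calls of 2-fold change needed 20 reads in a pair of libraries. The recovery of reads and the intervals were tested on simulated data.

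All 24 bait fragments, with both oligonucleotides of each, were found at their stated position in GRCm38, and all 842 summit fragments began with the DpnII site. Genes were taken from GENCODE M21, and coordinates count from 1. Contacts named in the text were those called in all 4 groups, the 4 largest falls and rises of each system and the 4 largest falls in both with at least 50 reads and an interval clear of no change, the 4 with the most reads per fragment, the 4 farthest and the 3 widest; others are named only as examples of a list or as stated. Promoter ends of developmental factors were also to be named, and there were 0. Of the farthest contacts, 2 are not reported here. Python with numpy, pandas and scipy was used. Alternatives covered the pseudocount, read minimum, centring, summary, score threshold and annotation.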

Additional observations from a re-analysis of the deposited data

Results flagged for a closer look

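Of the 88 other sites with at least 50 reads in both pairs of libraries, 2 moved in opposite directions in the 2 systems, with both Wilson intervals clear of no change on the deposited scale. An intergenic contact of Igfbp5 (chr1:73268955-73278879), 253 kb from the nearest TSS, had 353 reads in untreated and 246 in OHT-treated cells (log2 change -0.38), and 280 in Control and 390 in PRC1DEG cells (0.34), a difference of 0.73 between the systems. The contact of Dlx2 with the Metap1d promoter (chr2:71437831-71460929) had 1220 and 995 reads (-0.16) and 1053 and 1314 reads (0.22), a difference of 0.38. When centred on the median of all interactions, the OHT changes became -0.12 (-0.36 to 0.11) for Igfbp5 and 0.10 (-0.02 to 0.22) for Dlx2, so that neither OHT interval was clear of 0 and the directions for Dlx2 were no longer opposite. The difference between the systems was not tested, since each group has 1 merged value. The systems also differ in cell line, treatment time and experiment, and these cannot be told apart.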

How the results depend on the processing

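No paired analysis was possible because each group is 1 column merged from 3 replicates, and for the same reason no replicate could be left out. The median change after OHT, -0.17, became 0.10 when centred on the median of all 842 interactions, whose own median is -0.27, so that its sign is relative to the scaling. It was -0.34 in the 6 named baits of the second step size and -0.016 in contacts called only in auxin libraries, an alternative chosen after seeing the data. The median in PRC1DEG cells, 0.09, became -0.00618 as the log2 ratio of summed values. The other alternatives for both medians, including merged ends and removal of ends within 20 kb of a RING1B and PCGF2 end (both chosen after seeing the data), stayed within the 95% order-statistic interval of the median over contacts (-0.22 to -0.12 after OHT, -0.00494 to 0.18 in PRC1DEG cells). This interval takes the contacts as independent, which they are not, and leaves out the variation between replicates. It is thus only a rough yardstick.

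Calls depended on the score threshold. At a score of 10 they numbered 8 in untreated, 4 in OHT, 2 in Control and 1 in PRC1DEG cells. At a score of 3 they numbered 201 (OHT), 69 (Control) and 84 (PRC1DEG), and the mean score over fragments left 14 in Control. Contacts at least 2-fold lower after OHT numbered 11 with a minimum of 10 reads, 0 with 50 reads, 1 after centring and 22 at a fold of 1.5, and those higher numbered 3 with 10 reads, 4 after centring and 12 at a fold of 1.5. In PRC1DEG cells, 8 were lower with 10 reads, 1 with 50 reads and 15 at a fold of 1.5, and 11 were higher with 10 reads, 0 with 50 reads and 33 at a fold of 1.5. With at least 50 reads, centred Wilson intervals after OHT lay below 0 for 2 contacts (beside 16.9% of all interactions with such reads). They lay above it for 18 (beside 9.64%). As deposited these counts were 19 and 0, and the centred alternative was chosen after seeing the data. Ends with a TSS numbered 44 within 5 kb and 22 for any annotated gene. The causes were not tested. The median contact had 20 reads in untreated and 14.5 in Control cells, so that the change of most single contacts is not resolved.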

Other observations

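Some contacts outside the rule for naming, picked after their values were seen, add to the picture of single baits. Nptx1, which encodes a secreted synaptic protein, contacted the Chmp6 promoter with 605, 486, 794 and 581 reads in the untreated, OHT, Control and PRC1DEG libraries, changing on the log2 scale by -0.18 with OHT and by -0.54 with RING1B degradation. Gata5, a zinc-finger factor gene, contacted the Cables2 promoter with 1664, 1397, 1853 and 2037 reads, changing by -0.12 and 0.04. Eomes, a T-box factor gene, contacted the Cmc1 promoter with 176, 144, 95 and 133 reads, changing by -0.16 and 0.37. Over Skap1 the 57 HoxB contacts together held 89.3% of their untreated signal after OHT and 88.1% of the Control signal in PRC1DEG cells, although their medians were -0.13 and 0.09. The 10 contacts of Zfp503 over Kcnma1 held 80.1% and 87.6%.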
